A study of Homo sapiens with 9 samples.

Results

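The data described here are the mRNA levels of 10 regulators of apoptosis in HepG2 cells, an established tumor line from human liver, cultured with glutamine (Gln) or deprived of it. The genes were taken by symbol from the deposited expression table. They comprise the death receptors TNFRSF10A (DR4) and TNFRSF10B (DR5), the BH3-only genes BBC3 (PUMA), PMAIP1 (NOXA), BCL2L11 (BIM) and BID, the pore formers BAX and BAK1, and the pro-survival genes BCL2L1 (BCL-XL) and MCL1. All 10 were found among the 22587 genes of the table, and all 10 passed the filter for testing, an average over the libraries of 0.5 FPKM or more, as did 11880 genes in all. FPKM counts the fragments of a gene relative to its length and to the sequencing depth.

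RNA was sequenced from 9 cultures of the same unmodified line in high-glucose medium. Of these, 3 had Gln added, 3 had been without Gln for 12 h and 3 for 24 h. The study asked what Gln scarcity does to gene expression in tumor cells that depend on this amino acid. GlutaMAX, a dipeptide source of Gln, is listed in the labels as the treatment of the cultures with Gln added, whereas the treatment protocol places it in the medium of the deprivation experiment; the groups follow the sample titles. Nothing states that the 3 libraries of a group came from independent experiments, so the p-values measure the spread between these libraries, which may be technical.

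Apoptosis can be started from the cell surface or from the mitochondrion. TRAIL, the ligand encoded by TNFSF10, binds DR4 and DR5, which recruit and activate CASP8; active CASP8 can cleave BID and so engage the mitochondrial route. On the mitochondrial outer membrane, BAX and BAK1 form pores that release cytochrome c, BCL-XL and MCL1 hold them in check, and BH3-only proteins bind the pro-survival proteins or the pore formers through a short helix, the BH3 motif. DR5, PUMA, NOXA and BIM are known as genes that stress-responsive transcription factors can induce, and hepatocytes depend on BCL-XL and MCL1 for survival.

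The BH3 motif is what the 8 BCL2 family genes of the set share in sequence. It is shown here as the coding DNA of its core, because it is the part through which the BH3-only proteins bind their partners. A Leu, any 3 residues, a Gly or Ala and an Asp were searched in proteins translated from the canonical transcripts of GENCODE v44 on GRCh38. Each of the 8 had exactly 1 match, whereas 24.7% of all 19820 proteins searched held the pattern at least once, so the pattern alone does not mark a BCL2 protein. Among the receptors TNFRSF10B had 1 match and TNFRSF10A none. The sequences below run 5′ to 3′ on the coding strand, with capitals for the codons of the Leu and of the Gly or Ala followed by Asp.
BBC3, chr19:47226582-47226614, minus strand, exon 3: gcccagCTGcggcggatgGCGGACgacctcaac
PMAIP1, chr18:59902667-59902699, plus strand, exon 2: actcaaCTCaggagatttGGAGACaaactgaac
BCL2L11, chr2:111150097-111150129, plus strand, exon 3: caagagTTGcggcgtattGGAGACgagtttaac
BID, chr22:17739418-17739450, minus strand, exon 4: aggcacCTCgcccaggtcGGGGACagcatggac
BAX, chr19:48955781-48955813, plus strand, exon 3: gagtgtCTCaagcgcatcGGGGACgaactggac
BAK1, chr6:33575390-33575422, minus strand, exon 4: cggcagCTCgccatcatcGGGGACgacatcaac
BCL2L1, chr20:31721925-31721957, minus strand, exon 2: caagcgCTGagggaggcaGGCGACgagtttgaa
MCL1, chr1:150578868-150578900, minus strand, exon 1: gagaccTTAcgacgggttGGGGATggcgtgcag

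BBC3 had Ala in the fifth place of the core and the other 7 had Gly. In the 54 residues of the PMAIP1 protein, the smallest of the set, the core began at residue 29, and in the 350 residues of MCL1, the largest of the 8, at residue 213. Aligned base by base without gaps, BAK1 and BID, a pore former and a BH3-only gene, were the most alike pair, identical at 23 of 33 bases. Next came BBC3 with BCL2L11 and BCL2L11 with BCL2L1, each identical at 21 of 33. The windows were placed on the searched pattern, so part of this identity was built in.

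Each library held between 29621270 fragments on genes (12 h, replicate 1) and 36261546 (12 h, replicate 2), numbers recovered from the steps between FPKM values. Every pair of replicates differed by more than sampling noise, so none was counted as 1 sample. The 10 genes of the set rested on 109 to 22005 fragments per library, and none fell below 0.734 FPKM in any library. All 12 hepatocyte markers checked were expressed, and their summed level was 8042 to 8148 FPKM in the controls, 6987 to 7058 after 12 h and 6784 to 7131 after 24 h. Of 12 markers of immune, endothelial and fibroblast cells, 10 had a value, 6 of which (PECAM1, CDH5, VWF, COL1A1, COL3A1 and DCN) had a group mean under 0.5 FPKM in all groups. The sum of these 10 was 72.8 to 74.7 FPKM in the controls, 53.3 to 59.3 after 12 h and 44.6 to 49.5 after 24 h, most of it from ACTA2 and CD68. PDGFRB, a marker of fibroblasts and pericytes, went the other way, from a mean of 0.156 FPKM in the controls to 0.385 after 12 h and 0.667 after 24 h. The part of these shifts in the results below was not tested.

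At both times DR5, PUMA, NOXA, BCL-XL and MCL1 mRNA rose and BAX and BID mRNA fell, whereas BIM mRNA passed the test at neither time. At 12 h of Gln deprivation, 6 of the 10 genes were higher than with Gln added at an adjusted p under 0.05 from limma, against a background of 29.1% of all genes tested, and 2 were lower, against 31.0%. At 24 h, 7 were higher, against 33.0%, and 2 were lower, against 31.7%. The deprived and control libraries did not overlap for 10 of the 10 genes at 12 h, where 67.2% of all genes tested showed no overlap, and for 9 of the 10 at 24 h, where 69.9% did. More than 6 in 10 of the genes tested were thus called at 24 h, and a call by itself says little about a gene here. The median log2 fold change of the 10 was 0.46 at 12 h and 0.50 at 24 h, where all genes tested had medians of -0.019 and 0.013 and a median absolute change of 0.25 and 0.28. The 10 genes were chosen with earlier results of these data known, so these counts and medians are no independent test of the set. Both times were compared with the same 3 libraries with Gln added, so their values are not independent. In bulk RNA a lower level in every cell cannot be told apart from fewer cells that express a gene.

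**Figure D1:**
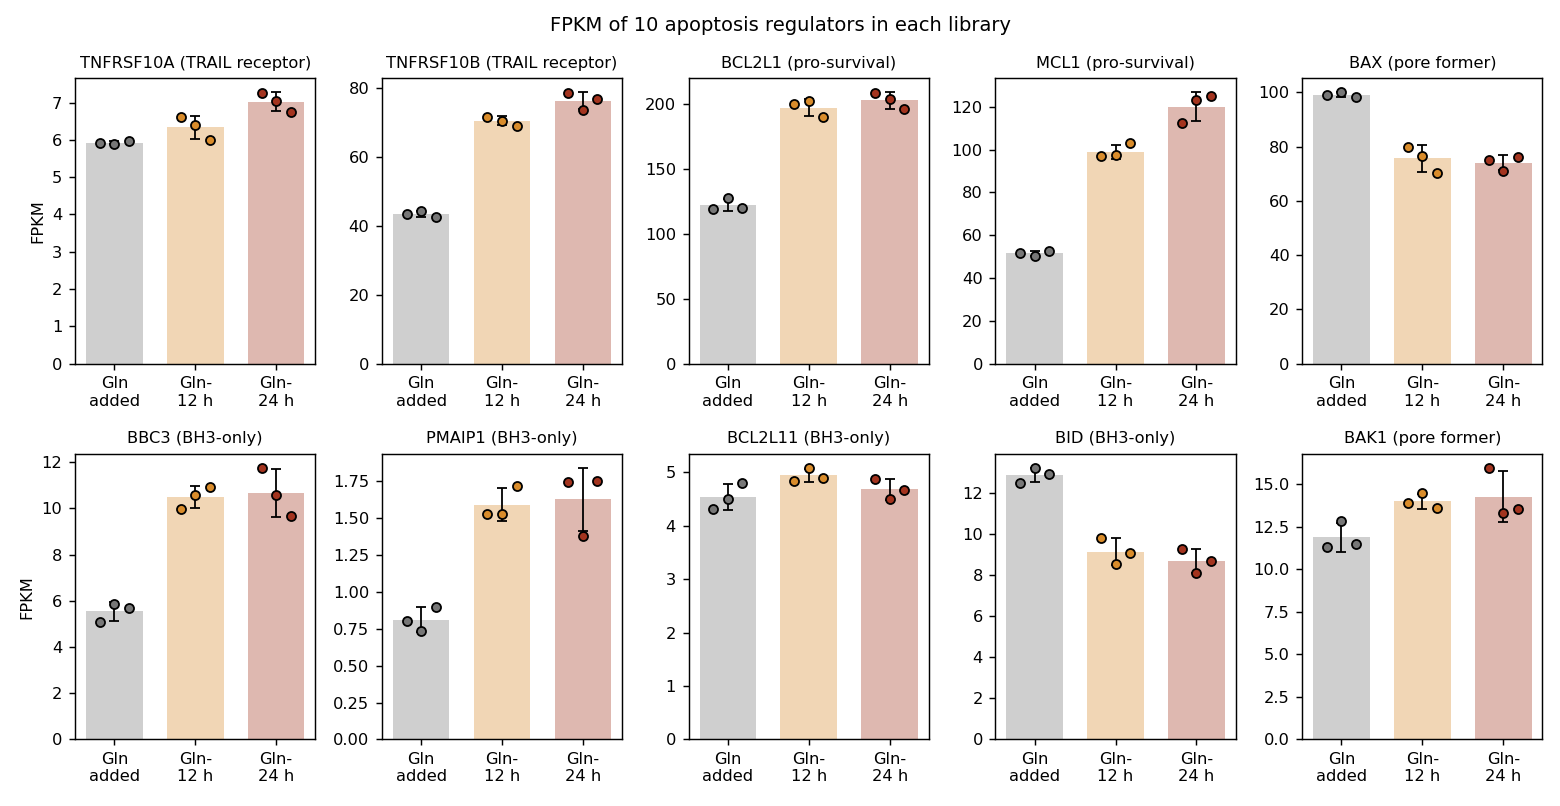
FPKM of each gene in cells with Gln added or deprived of Gln for 12 h or 24 h; points are the 3 libraries of a group, bars their mean and error bars the SD, with each panel on its own scale from 0. MCL1 rose from a mean of 51.5 to 99.0 and 120.1 FPKM, whereas BAX fell from 99.1 to 75.6 and 74.1 FPKM and BCL2L11 stayed between 4.31 and 5.08 FPKM.

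Of the death receptors, TNFRSF10B encodes DR5. The gene lies on chromosome 8 of GRCh38, from 23020133 to 23069031 on the minus strand (GENCODE v44). Its level was 43.5, 44.3 and 42.5 FPKM in the libraries in the controls, 71.8, 70.7 and 69.2 after 12 h without Gln and 78.7, 73.7 and 76.9 after 24 h. Every deprived library stood above every control library, and every 24 h library above every 12 h library. Its log2 fold change reached 0.70 after 12 h (SE 0.0358, adjusted p = 7.5e-08 from limma) and 0.81 after 24 h (adjusted p = 1.48e-08 from limma), or 1.62 and 1.76 times the control mean. Of all genes tested, 5.03% at 12 h and 5.14% at 24 h had a fold change as high or higher.

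TNFRSF10A encodes DR4, the other receptor through which TRAIL can signal death, and lies on the same strand of chromosome 8 from 23190452 to 23225102. It was listed at 5.90, 5.89 and 5.97 FPKM in the controls, 6.61, 6.39 and 6.01 after 12 h without Gln and 7.27, 7.05 and 6.76 after 24 h. The 3 groups did not overlap, but the lowest 12 h library was only just above the highest control. The log2 fold change of 0.09 at 12 h had a 95% interval of -0.02 to 0.21 (adjusted p = 0.138 from limma). At 24 h it was 0.24 (95% interval 0.13 to 0.36, adjusted p = 0.00184 from limma).

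DR5 was the more abundant receptor in every library, on the FPKM scale that divides by gene length. The ratio of DR5 to DR4 was 7.37, 7.51 and 7.12 in the controls, 10.9, 11.1 and 11.5 after 12 h without Gln and 10.8, 10.4 and 11.4 after 24 h. All deprived libraries had a higher ratio than all control libraries, whereas the 2 deprived groups overlapped. A two-sided exact permutation test of 3 libraries against 3 cannot give a p below 0.1, which is what it gave for the ratio at each time against Gln added. Opposite-strand genes overlap 16.7% of the exonic bases of TNFRSF10A and 7.5% of those of TNFRSF10B, and it is not stated whether strand was used in counting. Of these, TNFRSF10A-DT had a mean of 1.34 FPKM in the controls, 1.69 after 12 h and 2.08 after 24 h, the same direction as TNFRSF10A, and RHOBTB2, which overlaps TNFRSF10B, had 1.93, 1.41 and 1.55.

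Genes whose pattern over the 9 libraries was closest to that of TNFRSF10B were sought among the 7295 genes that averaged 5 FPKM or more, by the root-mean-square difference of centered log2 values. The 5 closest were IL4R, a cytokine receptor (0.030), ERBB3, a receptor of the EGFR family (0.031), CLCN7, a lysosomal chloride transporter (0.034), TRIM56, a ubiquitin ligase (0.043), and ABTB2 (0.043). IL4R, the closest, had log2 fold changes of 0.69 at 12 h and 0.78 at 24 h. Of the other regulators above 5 FPKM, BCL2L1 was the closest to TNFRSF10B, at rank 16 (0.052), ahead of BBC3 at rank 345 (0.125) and MCL1 at rank 776 (0.181). The measure describes these 9 libraries only.

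Among the BH3-only genes, BBC3 and PMAIP1 rose, BID fell and BCL2L11 passed the test at neither time. BBC3 encodes PUMA, which binds all major pro-survival proteins, and lies on chromosome 19 from 47220822 to 47232766. Its level was 5.09, 5.87 and 5.69 FPKM in the controls, 9.99, 10.6 and 10.9 after 12 h without Gln and 11.8, 10.6 and 9.65 after 24 h. All 6 deprived libraries stood above the 3 controls, with the 12 h and 24 h values interleaved. BBC3 rose by 0.91 on the log2 scale after 12 h (SE 0.0772, adjusted p = 3.08e-06 from limma) and by 0.93 after 24 h (adjusted p = 1.83e-06 from limma). Only 2.69% of all genes tested at 12 h and 3.88% at 24 h had a fold change as high or higher.

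PMAIP1 encodes NOXA, which binds MCL1 in preference to BCL-XL, and lies on chromosome 18 from 59899996 to 59904305. The gene was the least abundant of the 10, at 0.804, 0.734 and 0.900 FPKM in the controls, 1.53, 1.53 and 1.72 after 12 h without Gln and 1.75, 1.38 and 1.75 after 24 h. These values rested on 109 to 136 fragments in each control library and 192 to 266 in the deprived libraries. The lowest deprived library, at 24 h, was still above the highest control. On the log2 scale PMAIP1 rose by 0.89 after 12 h (SE 0.121, adjusted p = 9.67e-05 from limma) and by 0.92 after 24 h (adjusted p = 6.26e-05 from limma), with a wider interval (0.62 to 1.16 at 12 h) than for the other 9 genes. With a pseudocount of 1 in place of 0.1 it shrank to 0.52 and 0.53, since the gene is near 1 FPKM; the ratio of mean FPKM was 1.96 and 2.00. The length behind the deposited FPKM was 4248 bases, against 2186 exonic bases in GENCODE v44, so the level of PMAIP1 relative to other genes depends on the annotation used. The same holds for the other genes. The lengths were 1462 against 2587 bases for BAX, 2662 against 4420 for BID, 3950 against 6222 for MCL1 and 2948 against 4197 for BCL2L1.

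BCL2L11 encodes BIM, which binds pro-survival proteins and can also activate BAX, and lies on chromosome 2 from 111119378 to 111168444. It was at 4.31, 4.50 and 4.80 FPKM in the controls, 4.84, 5.08 and 4.89 after 12 h without Gln and 4.87, 4.49 and 4.66 after 24 h. The 12 h libraries lay just above the controls, and the 24 h libraries overlapped them. Its log2 fold change was 0.12 at 12 h (95% interval -0.01 to 0.25, adjusted p = 0.0964 from limma) and 0.04 at 24 h (95% interval -0.09 to 0.17, adjusted p = 0.537 from limma). An increase of the size seen for BBC3 lies outside both intervals. MIR4435-2HG, on the other strand, shares 10.8% of the exonic bases of BCL2L11; this RNA had a mean of 7.32 FPKM in the controls, 6.17 after 12 h and 5.12 after 24 h.

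BID links the death receptors to the mitochondrion and lies on chromosome 22 from 17734138 to 17774770. Its level was 12.5, 13.2 and 12.9 FPKM in the controls, 9.80, 8.52 and 9.07 after 12 h without Gln and 9.24, 8.08 and 8.67 after 24 h. Every deprived library was below every control library. The difference on the log2 scale was -0.49 after 12 h (SE 0.0634, adjusted p = 6.69e-05 from limma) and -0.57 after 24 h (adjusted p = 1.81e-05 from limma), or 0.710 and 0.673 times the control mean. BBC3 thus went from the less to the more abundant of the pair: the ratio of BBC3 to BID was 0.408, 0.445 and 0.440 in the controls, 1.02, 1.24 and 1.20 after 12 h without Gln and 1.27, 1.31 and 1.11 after 24 h. The FPKM of the 4 BH3-only genes summed to 22.7 to 24.3 in the controls, 25.7 to 26.6 after 12 h and 24.5 to 27.6 after 24 h. Both deprived groups lay above the controls in this sum, by a small margin beside the changes of its parts.

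**Figure D2:**
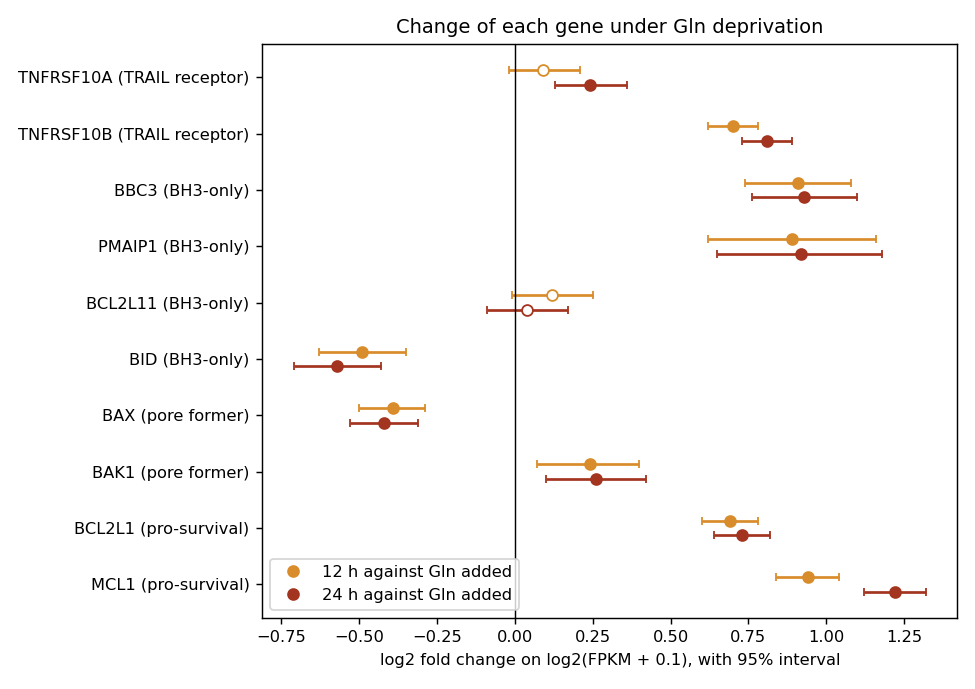
Log2 fold change of each gene against Gln added on the log2(FPKM + 0.1) scale, at 12 h and 24 h, with its 95% interval from limma; filled points have an adjusted p under 0.05 and open points do not. TNFRSF10B, BBC3, PMAIP1, BCL2L1 and MCL1 lie between 0.69 and 1.22, BAX and BID between -0.57 and -0.39, and BCL2L11 crosses 0 at both times.

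The 2 pore formers moved in opposite directions. BAX, on chromosome 19 from 48954815 to 48961798, was at 98.9, 100.1 and 98.3 FPKM in the controls, 80.0, 76.5 and 70.4 after 12 h without Gln and 75.1, 70.9 and 76.1 after 24 h. The controls lay within 2 FPKM of each other and above all deprived libraries. BAX thus changed by -0.39 on the log2 scale after 12 h (SE 0.0476, adjusted p = 4.44e-05 from limma) and by -0.42 after 24 h (adjusted p = 1.99e-05 from limma). A fall as deep or deeper was seen in 16.6% of all genes tested at 12 h and 16.1% at 24 h, so the fall of BAX was a moderate one for these libraries.

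BAK1, on chromosome 6 from 33572547 to 33580293, was at 11.3, 12.9 and 11.5 FPKM in the controls, 13.9, 14.5 and 13.6 after 12 h without Gln and 16.0, 13.3 and 13.6 after 24 h. All deprived libraries were above the controls, but the nearest control (12.9) and the nearest deprived library (13.3) were close. Its rise measured 0.24 on the log2 scale after 12 h (SE 0.0734, adjusted p = 0.017 from limma) and 0.26 after 24 h (adjusted p = 0.00961 from limma). At 12 h this call was lost without control replicate 1 (0.20, adjusted p = 0.0653), without control replicate 3 (0.21, adjusted p = 0.0599) and without 12 h replicate 2 (0.21, adjusted p = 0.0599, all from limma). At 24 h it was kept without each library in turn.

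BAX remained the more abundant pore former in every library. The ratio of BAX to BAK1 was 8.72, 7.79 and 8.57 in the controls, 5.75, 5.28 and 5.17 after 12 h and 4.70, 5.33 and 5.61 after 24 h. All deprived libraries had a lower ratio than all controls, and the 2 deprived groups overlapped. Because BAX was far the larger of the pair, their summed FPKM followed BAX, from a mean of 111 ± 1.75 in the controls to 89.6 ± 5.11 at 12 h and then 88.3 ± 3.62 at 24 h (each SD, n = 3).

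Both pro-survival genes rose. MCL1 encodes a short-lived protein that restrains BAK1 and binds BIM, PUMA and NOXA, and lies on chromosome 1 from 150560895 to 150579738. Its level was 51.7, 50.4 and 52.5 FPKM in the controls, 97.0, 97.3 and 102.8 after 12 h without Gln and 112.3, 123.0 and 125.0 after 24 h. The 3 groups were fully separate and in the order of time without Gln. MCL1 rose by 0.94 on the log2 scale after 12 h (SE 0.045, adjusted p = 4.3e-08 from limma) and by 1.22 after 24 h (adjusted p = 4.15e-09 from limma), or 1.92 and 2.33 times the control mean. MCL1 had the largest fold change of the 10 genes at both times with a pseudocount of 0.1, and 2.44% of all genes tested at 12 h and 2.05% at 24 h had one as high or higher; by the ratio of mean FPKM, PMAIP1 was ahead at 12 h (1.96). The overlapping ADAMTSL4-AS1 on the same strand, which shares 5.3% of the exonic bases of MCL1, had 2 to 7 fragments per library.

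BCL2L1 encodes BCL-XL, with a shorter spliced form that promotes death and is not separated in these gene-level values. The gene lies on chromosome 20 from 31664452 to 31723989 and was the most abundant of the 10 in every library. Its level was 119.5, 127.3 and 120.1 FPKM in the controls, 199.7, 202.0 and 189.8 after 12 h without Gln and 208.5, 204.2 and 195.9 after 24 h. The deprived libraries were far above the controls, and the 12 h and 24 h libraries overlapped. BCL2L1 rose by 0.69 on the log2 scale after 12 h (SE 0.0399, adjusted p = 1.79e-07 from limma) and by 0.73 after 24 h (adjusted p = 7.44e-08 from limma). ABALON, a gene on the other strand, shares 41.3% of the exonic bases of BCL2L1. ABALON itself had a mean of 6.08 FPKM in the controls, 6.45 after 12 h and 11.1 after 24 h. If strand was not used, reads of the shared bases cannot be told apart, and their part in the rise of BCL2L1 was not tested.

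Of the pro-survival pair, MCL1 rose more against Gln added. The ratio of BCL2L1 to MCL1 was 2.31, 2.53 and 2.29 in the controls, 2.06, 2.08 and 1.85 after 12 h without Gln and 1.86, 1.66 and 1.57 after 24 h. Both deprived groups lay below the controls, and a single 24 h library reached into the 12 h range. Between 12 h and 24 h the ratio differed by -0.24 on the log2 scale (two-sided exact permutation test, p = 0.2). The 2 genes summed to 173.8 ± 3.40 FPKM with Gln added, 296.2 ± 3.35 at 12 h and then 323.0 ± 3.60 at 24 h (each SD, n = 3). Set against the summed pore formers, this gave a ratio of 1.55, 1.57 and 1.57 in the controls, 3.16, 3.29 and 3.48 after 12 h without Gln and 3.52, 3.88 and 3.58 after 24 h. The sum of the BH3-only genes over that of the pro-survival genes fell from 0.137 ± 0.00415 to 0.0883 ± 0.00252 at 12 h and then 0.0794 ± 0.00591 at 24 h (each SD, n = 3). The ratios of sums are described without a test, and all of these are ratios of mRNA levels per gene length, which say nothing of protein. Their size also depends on the gene lengths of the annotation used.

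**Figure D3:**
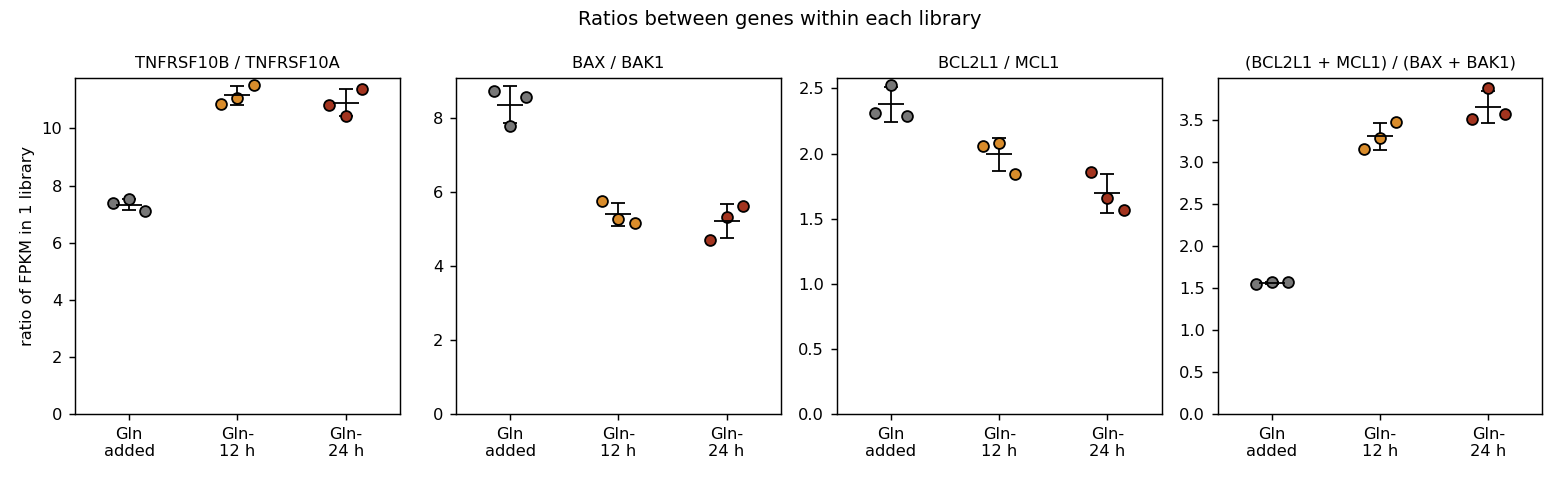
Ratios of FPKM between genes within each library for the 3 groups; points are libraries, long horizontal lines the mean and error bars the SD of 3 libraries, with each panel on its own scale from 0. Pro-survival genes over pore formers went from 1.57 with Gln added to 3.31 and 3.66, while BAX over BAK1 went from 8.36 to 5.40 and 5.22 at 12 h and 24 h.

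In the order of FPKM levels with Gln added, BCL2L1 was followed by BAX, MCL1, TNFRSF10B, BID and BAK1, TNFRSF10A, BBC3, BCL2L11 and PMAIP1. All neighbors in this order were separate over the 3 libraries except BID and BAK1. The order rests on the gene lengths behind the deposited FPKM, which differ from those of GENCODE v44, and other lengths could change it. Under Gln deprivation MCL1 passed BAX to the second place and BBC3 passed BID and TNFRSF10A, at both 12 h and 24 h. BAX and TNFRSF10B overlapped at both times, with BAX ahead on the mean at 12 h and TNFRSF10B at 24 h. Every one of the 10 genes kept above 0.5 FPKM in every library, so both routes to apoptosis and their inhibitors had mRNA in all 3 conditions.

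**Figure D4:**
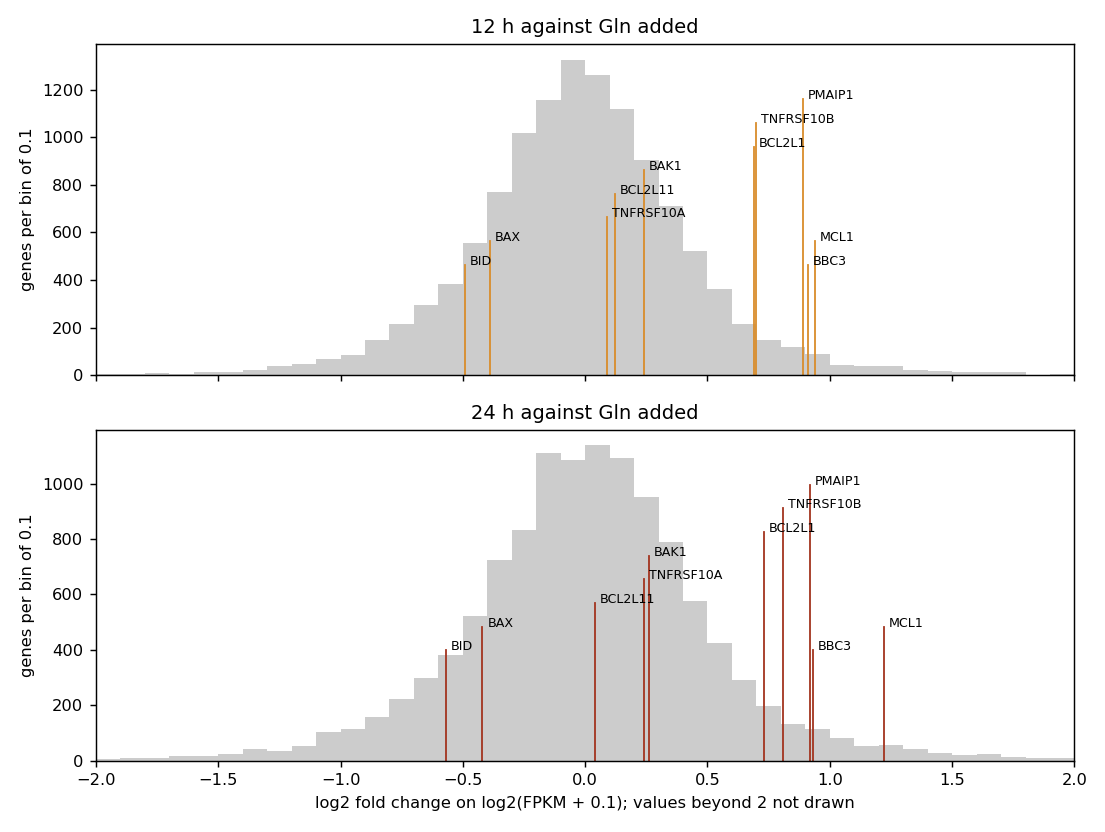
Histogram of log2 fold changes on the log2(FPKM + 0.1) scale of the genes tested against Gln added at 12 h (top) and 24 h (bottom), in bins of 0.1, with a vertical line at the value of each of the 10 genes (line heights only separate the names). MCL1, at 0.94 and 1.22, lies in the upper tail with BBC3 and PMAIP1, whereas TNFRSF10A, BCL2L11 and BAK1 lie within the bulk.

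Between 12 h and 24 h of Gln deprivation 2 of the 10 genes were called. Of all 11880 genes tested 2386 were called, a share close to that of the 10. At an adjusted p under 0.05 from limma, 2 were higher at 24 h, TNFRSF10B and MCL1, against 9.57% of all genes tested; the other 8 were not called, where 10.5% of all genes tested were lower. Libraries at 12 h and 24 h did not overlap for 3 genes, TNFRSF10A, TNFRSF10B and MCL1, against 34.4% of all genes tested. MCL1 rose by 0.28 on the log2 scale (SE 0.045, 95% interval 0.18 to 0.38, adjusted p = 0.00199 from limma), or 1.21 times. The rise of TNFRSF10B was 0.11 (95% interval 0.04 to 0.19, adjusted p = 0.0459 from limma), which is just under the threshold. Leaving out any library except 24 h replicate 2 ended this call, with adjusted p up to 0.121 over all alternatives. TNFRSF10A differed by 0.15 (95% interval 0.03 to 0.26, adjusted p = 0.0707 from limma). BCL2L1 differed by 0.04, with an interval from -0.05 to 0.13 that leaves out a gain as large as the estimate for MCL1. The other genes had differences between -0.08 and 0.02. Every exact two-sided permutation test of a single gene at 12 h against Gln added gave p = 0.1, the smallest that 3 libraries against 3 can give, and so did all but BCL2L11 (p = 0.5) at 24 h.

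Other genes of the pathway were followed as lists, to be read against the shares of all genes tested: 29.1% higher and 31.0% lower at 12 h, 33.0% higher and 31.7% lower at 24 h. Of 16 further genes of the death receptor route (other receptors and decoys, ligands, adaptors and initiator caspases), 11 could be tested. At 12 h 5 were higher, 2 lower and 4 not called, with a median log2 fold change of 0.04; at 24 h 6 were higher, 2 lower and 3 not called, with a median of 0.21. TNFSF10, the gene of TRAIL, fell from 3.41 ± 0.13 FPKM to 1.57 ± 0.26 at 12 h and then 1.73 ± 0.20 at 24 h (each SD, n = 3), a log2 fold change of -1.08 and -0.94 (adjusted p = 1.84e-05 and 3.83e-05 from limma). The ligand thus fell where its receptor DR5 rose. FAS, another death receptor, fell by 0.70 on the log2 scale at both times, from a mean of 5.97 FPKM to 3.66 and 3.65 (adjusted p = 1.6e-05 and 1.22e-05 from limma). CASP8, the initiator caspase, rose slightly, by 0.14 at 12 h and 0.31 at 24 h (adjusted p = 0.0377 and 0.000415 from limma). CFLAR, which encodes the CASP8 inhibitor FLIP, had log2 fold changes of 0.03 and 0.06 (adjusted p = 0.633 and 0.312 from limma).

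In the BCL2 family outside the 10 genes, 7 of 8 further BH3-only genes (with the pore former-like BOK) could be tested. At 12 h 3 were higher, 3 lower and 1 not called, with a median of -0.05, where 29.1% of all genes tested were higher and 31.0% lower. At 24 h 4 were higher and 3 lower, with a median of 0.14, where the shares of all genes were 33.0% and 31.7%. The largest change was that of BMF, a BH3-only gene linked to the cytoskeleton and to loss of attachment. BMF had a mean of 1.55 ± 0.11 FPKM with Gln added, 5.42 ± 0.37 at 12 h and then 5.50 ± 0.24 at 24 h (each SD, n = 3). Its log2 fold change of 1.74 and 1.76 (adjusted p = 1.84e-08 and 9.69e-09 from limma) was larger than that of any of the 10 genes. Of 4 other pro-survival genes only BCL2L2, which encodes BCL-W, passed the filter; it rose from 13.7 FPKM to 19.8 and 21.8, by 0.53 and 0.67 on the log2 scale (adjusted p = 6.79e-06 and 8.22e-07 from limma). BCL2 itself was near the floor, with means of 0.223, 0.300 and 0.275 FPKM in the 3 groups from 61 to 124 fragments per library, and was not tested.

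Downstream of the mitochondrion more genes were lower than higher. The list held 12 genes, of the apoptosome, the caspases, proteins released from mitochondria and the DNA fragmentation factors DFFA and DFFB, all tested. At 12 h 1 was higher, 7 lower and 4 not called, where 31.0% of all genes tested were lower, with a median log2 fold change of -0.26. At 24 h 2 were higher, 9 lower and 1 not called, where 31.7% of all genes tested were lower, with a median of -0.28. No test of these counts against the background was made. Of the 5 inhibitor of apoptosis genes 4 were tested, and 3 of them were higher at each time. Among all genes tested, 29.1% were higher at 12 h and 33.0% at 24 h. The median of the inhibitor genes tested was 0.21 at 12 h and 0.35 at 24 h, with 1 gene lower at 24 h.

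**Figure D5:**
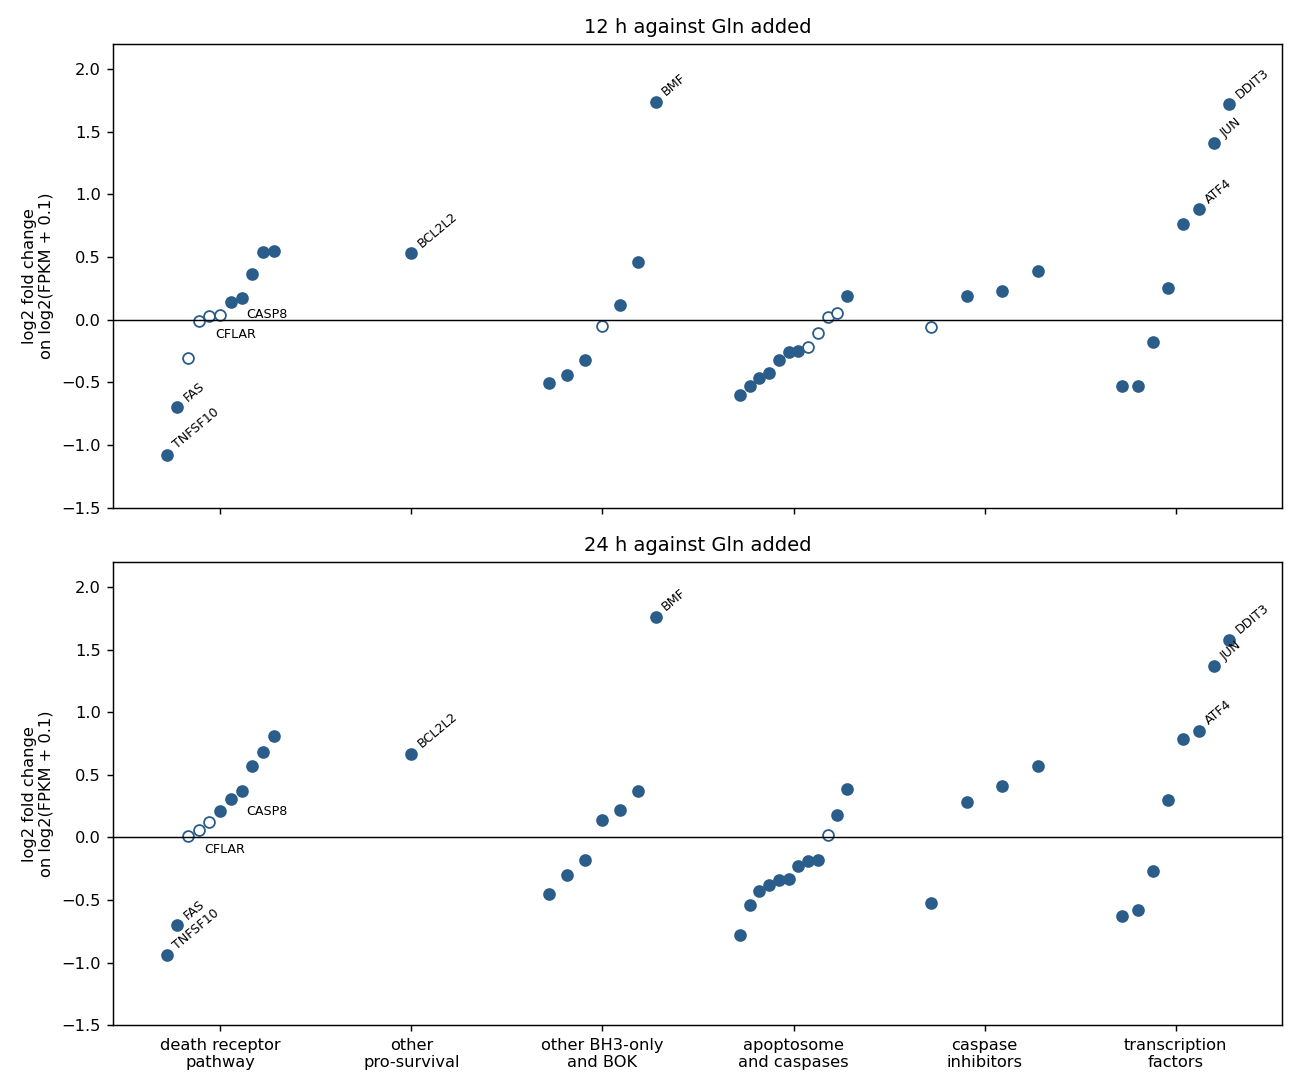
Log2 fold change against Gln added on the log2(FPKM + 0.1) scale of the tested genes of 6 lists outside the 10 genes, at 12 h (top) and 24 h (bottom), ordered by value within a list; filled points have an adjusted p under 0.05 from limma and open points do not. BMF (1.74 and 1.76) and DDIT3 (1.72 and 1.58) stand highest, TNFSF10 (-1.08 and -0.94) lowest, and most points of the apoptosome and caspase list lie below 0.

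Of 8 transcription factors known to act on promoters of these regulators, 5 were higher and 3 lower at both times, with medians of 0.50 and 0.55. Among all genes tested, 29.1% were higher and 31.0% lower at 12 h, and 33.0% and 31.7% at 24 h. DDIT3 (CHOP), a factor of the integrated stress response known for its action on TNFRSF10B and BBC3, went from 10.3 ± 0.43 FPKM to 34.0 ± 0.69 at 12 h and then 31.0 ± 1.24 at 24 h (each SD, n = 3). Its rise on the log2 scale was 1.72 and 1.58 (adjusted p = 4.98e-10 and 7.17e-10 from limma). ATF4, which acts upstream of DDIT3, rose by 0.88 and 0.85 on the log2 scale, from 41.9 FPKM to 77.4 and 75.5 (adjusted p = 7.51e-09 and 5.92e-09 from limma). JUN, a subunit of AP-1, rose by 1.41 and 1.37, from 18.0 FPKM to 48.1 and 46.6. E2F1 was among the factors that fell, with log2 fold changes of -0.53 and -0.58 (adjusted p = 3.85e-06 and 1.31e-06 from limma). So was TP73, with a mean of only 0.702 FPKM in the controls, at -0.53 and -0.63 (adjusted p = 0.0158 and 0.00567 from limma).

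Motifs of such factors were searched in RefSeq promoters (GRCh38.p14), windows that end shortly after a start site, of which 7 of the 10 genes (not TNFRSF10A, TNFRSF10B or MCL1) had at least 1. On both strands the letters TGATGNAA (a composite element of ATF4 and its partners), TGACGTCA (the cAMP response element), TGANTCA (AP-1) and GGGANTTCC (a form of the NF-kB site) occurred in 3.62%, 1.85%, 7.71% and 1.85% of all 35116 promoters. These 4 patterns gave 1 match in the 12 windows of the 7 genes, an AP-1 pattern in the BBC3 window at -113 from the start. That window is printed because it holds the only match, with the match in capitals, for chr19:47232618-47232917 on the minus strand.
BBC3 promoter: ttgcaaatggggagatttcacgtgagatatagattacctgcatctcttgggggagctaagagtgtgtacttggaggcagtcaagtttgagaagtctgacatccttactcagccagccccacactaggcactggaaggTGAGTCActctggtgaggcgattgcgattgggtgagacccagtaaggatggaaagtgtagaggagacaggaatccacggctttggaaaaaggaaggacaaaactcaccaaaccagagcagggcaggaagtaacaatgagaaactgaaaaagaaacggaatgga

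The match is a description of letters, and binding of AP-1 there was not measured. Start sites other than those of the RefSeq table, and regulatory regions further away, were not searched.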

How the data were processed

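Gene expression was measured by RNA-seq in 9 libraries of HepG2 cells, 3 per group. According to the methods, the authors aligned reads to GRCh38 with STAR and tested with DESeq2; the submitters' processing notes also name HTSeq and R 3.2.0. What the authors deposited is a table of FPKM values, with all 9 columns matched to a library by the labels. The labels name another library kit than the methods, so the use of strand is unsettled. Whole fragments were fitted to the FPKM steps for 100.0% of genes (within 0.02 fragments). The search accepted only such numbers, so this share is no check on them. The recovered fragments summed to 99.91% to 99.92% of the library totals.

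FPKM are not counts, so limma 3.58.1 in R 4.3.3 (lmFit, eBayes with a trend) was run on log2(FPKM + 0.1) where a gene averaged 0.5 FPKM or more, all 3 groups in 1 fit, with Benjamini-Hochberg adjustment over all genes tested and an adjusted p under 0.05 as the threshold. Fold changes on this scale understate those of genes near 0.1 FPKM. Single genes and ratios were compared by exact permutation over libraries. The 10 genes and the lists were chosen with earlier results of these data known. All 10 were named; of each list, genes with an absolute log2 fold change of at least 1 and an adjusted p under 0.05, and ATF4, DDIT3, FAS, CFLAR, CASP8, TNFSF10, BCL2 and BCL2L2. A gene that the rule also names is not reported here. Coordinates and the BH3 search use GENCODE v44 transcripts, which replaced the RefSeq proteins first planned. The alternatives tried were pseudocounts of 1 and 0.01, leaving out the filter or raising it to 1 FPKM, 2 other scalings, only the groups compared, a replicate block, eBayes without a trend, voom on recovered fragments, an adjusted p under 0.01 and each library left out. Python 3.11.15 with matplotlib 3.10.9 drew the figures.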

Additional observations from a re-analysis of the deposited data

Results flagged for a closer look

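A pair of the 10 genes differed between the times of Gln deprivation in a test of the difference itself, with the 24 h libraries set directly against the 12 h libraries in limma. Of all 11880 genes tested, 2386 were called in this comparison, so 2 of 10 is close to the share of all genes. MCL1 was higher at 24 h by 0.28 on the log2 scale (adjusted p = 0.00199), and the difference lay between 0.25 and 0.32 under all alternatives, with adjusted p from 0.000236 to 0.0108. TNFRSF10B was higher at 24 h by 0.11 (adjusted p = 0.0459), and its adjusted p ran from 0.0205 to 0.121 over the alternatives. For both genes the 24 h libraries all lay above the 12 h libraries. Groups of 3 libraries are too small for a test of single outlying libraries.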

How the results depend on the processing

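In all, 36 results were recomputed, giving 690 values under an alternative, and no call reversed its direction. Of the values for single genes, 552 stayed on the same side of the threshold; among them, uncalled differences near 0 between 12 h and 24 h changed sign for BBC3, PMAIP1, BAX and BAK1. Of the counts, 106 stayed within 1.5 times the main count and 14 did not. All 14 concern 24 h against 12 h: an adjusted p under 0.01 gave 1141 genes in place of 2386, by its construction, and the count of the 10 genes called went from 2 to 1, with the loss of TNFRSF10B, with no filter on low values, median-ratio scaling, only the 2 groups compared, eBayes without a trend and an adjusted p under 0.01, as it did without each library except 24 h replicate 2 (range 1 to 2). The cause was not tested.

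Leaving out 1 library gave 6455 to 7434 genes and 7 to 8 of the 10 at 12 h, 7034 to 7811 genes and 9 of the 10 at 24 h, and 1652 to 2515 genes between the times. FPKM rescaled to the same total brought in TNFRSF10A at 12 h (0.13, adjusted p = 0.0471 from limma), BCL2L11 at 12 h (0.15, adjusted p = 0.0423) and TNFRSF10A between the times (0.16, adjusted p = 0.0448), so all 10 were called at 12 h. Scaling moved the median of all genes by less than 0.1 on the log2 scale. Voom on the recovered fragments called 7308 genes at 12 h, 7859 at 24 h and 2636 between the times, with 8, 9 and 2 of the 10.

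Replicate numbers are shared by the groups, but same-numbered libraries deviated together only in part (correlations from -0.107 to 0.499), so the numbers were not taken to pair the samples. With a replicate block, 8, 9 and 2 of the 10 genes and 7341, 7802 and 2586 of all genes were called at 12 h, at 24 h and between the times. Depth limits PMAIP1 most, with 109 fragments in its lowest library.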
